A study of Rattus norvegicus with 9 samples.

Results

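The 147 rows described here were those of the deposited expression table whose gene name begins with ORYCUN, and they were chosen by that prefix alone, out of 22512 rows. In all 147 names the prefix was followed by V1R and a number, and the 147 numbers were distinct and lay between 1502 and 1672. The comparison set was formed by the 2019 other rows with a gene name, leaving aside 20346 rows whose name begins with LOC. The table held FPKM values (fragments per kilobase of transcript and per 1000000 mapped fragments) from cultured neonatal rat cardiac fibroblasts at passage 2 or 3, with 3 libraries in each of 3 groups. Blank cells received neither agent. AngII cells were given angiotensin II at 0.1 µM for 72 h, and vericiguat + AngII cells were given vericiguat, a stimulator of soluble guanylate cyclase, at 1.0 µM for 24 h before the same AngII treatment according to the sample labels. The study's methods describe AngII first and vericiguat second for its migration assay. The purpose of the groups was to compare fibroblasts activated by AngII with and without vericiguat. The sources used here do not say that the 3 libraries of a group came from separate cultures, so p-values measure the spread between these libraries, which may be technical.

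V1R is the usual code of the vomeronasal type 1 receptors. These are G protein-coupled receptors of sensory neurons in the vomeronasal organ, a chemosensory structure of the nasal septum, where they detect pheromones and other small molecules and signal through an inhibitory G protein and the TRPC2 cation channel. A vomeronasal neuron typically expresses a single receptor of the family, and the genes have a single coding exon. Genes of this kind are not known as markers of cardiac fibroblasts, which is why their rows can be read as a measure of low-level signal. None of the names (0 of 147) equalled a symbol or synonym in the rat RefSeq table of assembly GRCr8, in which 213 symbols begin with Vom1r, the rat name of the family. The submitters' processing notes name OryCun2.0, which is a rabbit assembly. The rows are therefore called by their deposited names, and no rat gene is assigned to any of them.

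Most of the vomeronasal receptor rows carried no signal in any library. Of the 147 rows, 131 (89.1%) were listed at 0 in all 9 libraries, against 281 (13.9%) of the 2019 other named rows and 3819 (18.8%) of the LOC rows. The remaining 16 rows (10.9%) gave 33 values above 0 out of 1323. No ORYCUN row was above 0 in all 9 libraries, whereas 433 (21.4%) of the other named rows were. A listed 0 does not show that a transcript was absent, since the fibronectin gene FN1, which fibroblasts express strongly, was also listed at 0 in an AngII library.

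Detection differed by group. Above FPKM 0, the number of ORYCUN rows detected was 0, 0 and 0 in the 3 blank libraries. It was 2, 1 and 2 with AngII and 9, 9 and 10 with vericiguat + AngII. The 3 groups did not overlap in this count. As a share of the 147 rows, detection was 0% in blank, 1.13% ± 0.393 (SD, n = 3) in AngII and 6.35% ± 0.393 (SD, n = 3) in vericiguat + AngII. Above FPKM 0.1, the counts were 0 in each blank library, 1 in each AngII library, and 7, 7 and 9 in the vericiguat + AngII libraries, or 0%, 0.680% and 5.22% ± 0.786 (SD, n = 3). Above FPKM 1, no row was detected in the 6 blank and AngII libraries, and 1 row (0.680%) was detected in each vericiguat + AngII library. The threshold of FPKM 0.1 does not remove single fragments. A fragment of a row like ORYCUNV1R1643 was worth FPKM 0.101 to 0.169 by the estimate given below. All these shares are descriptions, because rows are not replicates of a condition.

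The other named rows were detected at far higher shares in every group, and most often in vericiguat + AngII. Above FPKM 0, their share was 45.6%, 29.0% and 43.3% in blank, 53.2%, 48.9% and 50.4% in AngII, and 78.0%, 77.5% and 78.1% in vericiguat + AngII. In each of the 9 libraries the other named rows were detected more often than the ORYCUN rows, by 29.0 to 45.6 percentage points in blank, 48.3 to 51.8 in AngII and 71.3 to 71.8 in vericiguat + AngII. Above FPKM 0.1, the mean share of the other named rows was 26.4% ± 9.87 in blank, 35.8% ± 0.223 in AngII and 72.3% ± 0.351 in vericiguat + AngII (SD, n = 3 each). Above FPKM 1, it was 7.73% ± 4.31, 11.0% ± 0.206 and 56.4% ± 0.838 in the same order. There the blank libraries stood at 11.9%, 3.32% and 7.92% and the AngII libraries at 10.8%, 10.9% and 11.2%, so these groups overlapped, and replicate 2 of blank was the lowest at each threshold. Set against these rows, detection of the ORYCUN rows at FPKM above 0 was 37.1 to 71.9 times less frequent in the AngII libraries and 11.5 to 12.7 times less frequent in the vericiguat + AngII libraries. The step from AngII to vericiguat + AngII was thus present in both sets of rows.

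**Figure D1:**
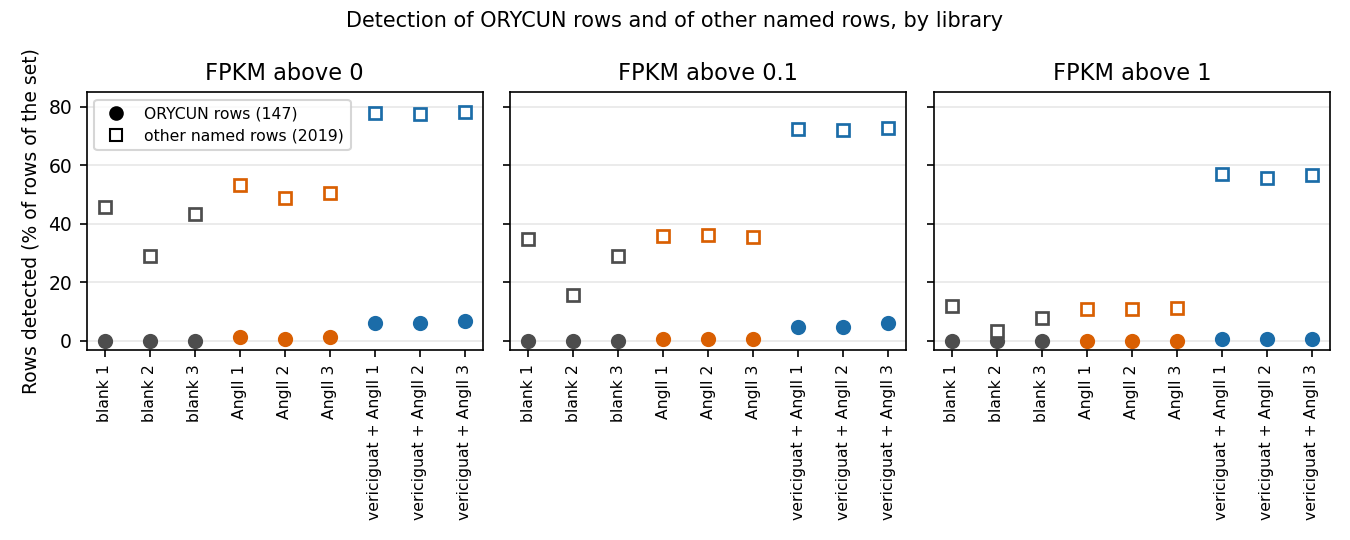
Share of rows detected (%, vertical axes) in each of the 9 libraries at FPKM above 0, 0.1 and 1, for the 147 ORYCUN rows and the 2019 other named rows; filled circles are ORYCUN rows, open squares are other named rows, and each point is a library. The ORYCUN shares stay at 0% in blank and reach 6.35% on average in vericiguat + AngII, where the other named rows reach 77.8%.

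The libraries themselves stood apart in composition, above all vericiguat + AngII from the rest. The 13 entries whose names begin with KEF51 held 97.6% to 97.9% of the summed FPKM in blank, 96.7% to 97.5% in AngII and 45.3% to 52.3% in vericiguat + AngII. The number of rows above 0 was 5511 to 9323 in blank, 9915 to 10438 in AngII and 16458 to 16764 in vericiguat + AngII. Summed FPKM of the 5 listed fibroblast markers (5 of 14 fixed) was 1.85 to 25.7, 8.34 to 26.3 and 385 to 548 in the same order, and that of 7 listed cardiomyocyte markers (7 of 15) was 6.96 to 9.21, 46.9 to 112 and 3985 to 6291. The endothelial sum (2 of 8 markers) was 0.054 to 0.398, 0.083 to 0.421 and 81.3 to 86.2. The smooth muscle sum (3 of 8) was 0.92 to 25.2, 4.70 to 6.85 and 428 to 731. The macrophage sum (1 of 8) was 0.151 to 1.14, 0 to 0.202 and 5.16 to 8.56. Blank and AngII overlapped in each of these marker sums except the cardiomyocyte sum. They did not overlap in the KEF51 share or in the number of rows above 0. The part of composition and of other cell types in the detection of the ORYCUN rows was not tested. Because all 3 vericiguat + AngII libraries differed from the other 6 in these values, treatment and library composition cannot be told apart. In bulk samples, fewer cells of a type and less RNA per cell cannot be told apart either.

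Among the 16 rows with any signal, 15 were above 0 in at least 1 vericiguat + AngII library, 2 in at least 1 AngII library, and 1 in both groups. Of the 15, 6 were above 0 in all 3 vericiguat + AngII libraries, 1 was above 0 in 2 of them, and 8 were above 0 in only 1. The highest value of any row other than ORYCUNV1R1556 was FPKM 0.614, and the lowest value above 0 was 0.02. Of these 16 rows, 14 had their highest value between FPKM 0.1 and 1, and only ORYCUNV1R1556 went above 1. No function specific to a single receptor of this list is known well enough to be given, so the rows are described in the order of their mean FPKM.

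ORYCUNV1R1556 was the exception to the low level of the set. It was listed at 0 in all 3 blank and all 3 AngII libraries, and its FPKM was 6.802, 7.600 and 7.335 in the vericiguat + AngII libraries, or 7.25 ± 0.406 (SD, n = 3). The groups did not overlap. Its mean in vericiguat + AngII was higher than that of 75.9% of all rows and of 68.1% of the other named rows, and it was 20.7 times the mean of the next ORYCUN row. For this row the description as low-expression background held in blank and AngII but not in vericiguat + AngII. The row made up 81.8% to 82.4% of the summed FPKM of the ORYCUN rows in those 3 libraries. Its coefficient of variation over them was 5.61%, against a median of 12.5% for the 383 other rows whose vericiguat + AngII mean lay between its lowest and highest value. A lower coefficient of variation was found in 15.1% of those rows. Of these 383 rows, 7 (1.83%) were likewise at 0 in all 6 blank and AngII libraries and 121 were above 0 in all 6, with a median over these libraries of FPKM 0.09.

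**Figure D2:**
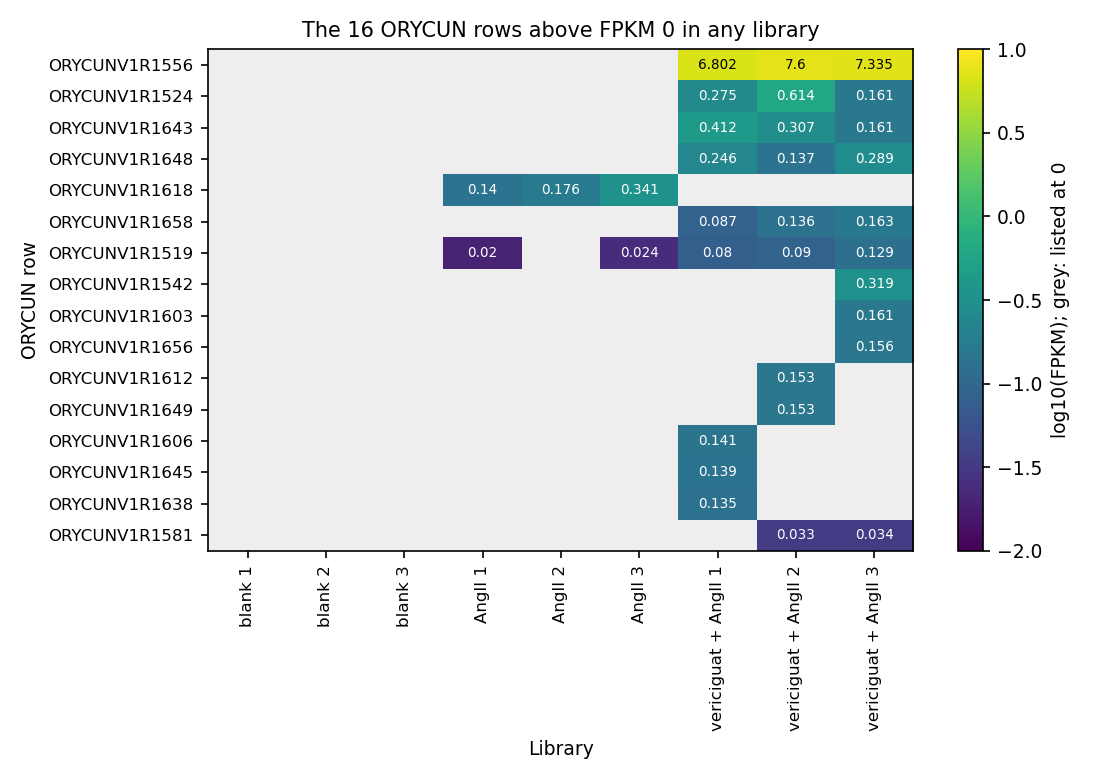
FPKM of the 16 ORYCUN rows above 0 in any library (vertical) in each of the 9 libraries (horizontal), with the value printed in each cell and grey cells listed at 0; colour gives log10(FPKM). ORYCUNV1R1556 lies between 6.802 and 7.600 in the vericiguat + AngII libraries, and no other value exceeds 0.614.

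Whether any ORYCUN row changed between groups was tested with limma on log2(FPKM + 1) over the 10908 rows that reached FPKM 1 in 3 or more libraries, with Benjamini-Hochberg adjustment over these rows. Calls required a log2 fold change of 1 or more in either direction together with an adjusted p below 0.05. Only 1 of the 147 ORYCUN rows, ORYCUNV1R1556, passed the filter, and it passed through the vericiguat + AngII libraries alone. Between AngII and blank, 0 ORYCUN rows were called, where 1.55% of all rows tested were called by limma; the single row tested was at 0 in all 6 libraries of that contrast, so it could not have been called. Between vericiguat + AngII and AngII, 1 ORYCUN row was called, where 99.6% of all rows tested were called. Between vericiguat + AngII and blank, the same row was called, where 99.4% of all rows were called. With nearly every tested row called, these calls say nothing particular about the receptor row.

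On the log2(FPKM + 1) scale, ORYCUNV1R1556 was higher in vericiguat + AngII than in AngII by 3.04 (SE 0.0844, 3 of 3 libraries above all AngII libraries) and higher than in blank by the same 3.04. The median log2 fold change of all 10908 rows was 2.76 and 2.83 in these contrasts, with nearly every row higher in vericiguat + AngII. The distance from the median row depended on the scale. Against AngII, the row and the median stood at 6.20 and 4.78 with a pseudocount of 0.1, at 9.50 and 5.92 with a pseudocount of 0.01, at 4.16 and 2.26 with the rows outside KEF51 rescaled to a common sum, at 1.79 and 0.19 after quantile normalization, and at 0.58 and 0.09 under median-ratio scaling, the last below the threshold for a call. Because the row was at 0 in 6 libraries, the fold change depends on the pseudocount and is not a ratio of levels. The row entered the fit only through the libraries in which it was high, so it had to differ, and these values are given as a description with no p from the fit. A two-sided exact permutation test of the 3 FPKM values against 3 gave p = 0.1, the smallest that 3 libraries against 3 allow. That p was fixed by the 0 values in the other libraries and adds no support.

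The next 3 rows were seen in vericiguat + AngII alone, in all 3 of its libraries. ORYCUNV1R1524 was at FPKM 0.275, 0.614 and 0.161. ORYCUNV1R1643 was at 0.412, 0.307 and 0.161. ORYCUNV1R1648 was at 0.246, 0.137 and 0.289. All of them were at 0 in the blank and AngII libraries. The groups did not overlap, but the 3 vericiguat + AngII values of each row varied widely among themselves, and the library with the highest value was a different one for each row.

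ORYCUNV1R1618 was the only row seen in AngII alone. Its FPKM was 0.14, 0.176 and 0.341 in the AngII libraries and 0 in the other 6. The AngII libraries thus did not overlap with either other group. The exact permutation p = 0.1 (two-sided, n = 3 against 3) against each is fixed by that pattern, for which the row is set apart here. It adds no support. In the whole table, 11 rows (0.0489%) were above 0 in all 3 AngII libraries and at 0 in the other 6, of which 10 were LOC rows and 0 belonged to the other named rows.

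ORYCUNV1R1658 and ORYCUNV1R1519 were lower but also present in every vericiguat + AngII library. ORYCUNV1R1658 was at FPKM 0.087, 0.136 and 0.163 there and at 0 in the other 6 libraries. ORYCUNV1R1519 was at 0.080, 0.090 and 0.129 in vericiguat + AngII, at 0.02, 0 and 0.024 in AngII, and at 0 in blank. This row was the only one seen in both groups, and its vericiguat + AngII values lay above all AngII values. The exact permutation p = 0.1 (two-sided, n = 3 against 3) follows from that order and is the smallest possible, so it adds no support. The row's AngII and blank values overlapped at 0 (exact permutation p = 0.4).

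The rows seen in a single library all belonged to vericiguat + AngII. ORYCUNV1R1542, at 0.319, ORYCUNV1R1603, at 0.161, and ORYCUNV1R1656, at 0.156, were each seen in replicate 3 only. Of the other 5, whose names were taken after their values were seen, ORYCUNV1R1612 and ORYCUNV1R1649 were both at 0.153 in replicate 2, and ORYCUNV1R1606, ORYCUNV1R1645 and ORYCUNV1R1638 were at 0.141, 0.139 and 0.135 in replicate 1. ORYCUNV1R1581 was at 0.033 and 0.034 in replicates 2 and 3. None of these 9 rows was seen in all 3 libraries of a group.

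The low values could be read as numbers of fragments. Within a library the FPKM of a row is a whole multiple of what 1 fragment is worth, a value set by the row's length and the library's depth, and the ratio of that value between libraries was taken from the ratios that recurred most often among low rows of the table. This was done for 7 ORYCUN rows seen in at least 2 libraries and below FPKM 1, with 22 values. In each row 1 value was set to a whole number from 1 to 12, the smallest that brought the others within 0.1 of whole numbers, so 7 of the 22 values were whole by construction and the other 15 were fitted. The numbers of fragments are estimates on that basis. ORYCUNV1R1524 then rested on 2, 4 and 1 fragments in the vericiguat + AngII libraries, ORYCUNV1R1643 on 3, 2 and 1, and ORYCUNV1R1648 on 2, 1 and 2. ORYCUNV1R1618 rested on 1, 1 and 2 fragments in the AngII libraries, 4 in all. ORYCUNV1R1581 rested on 1 fragment in each of its 2 libraries. Hence 5 of the 7 rows had no more than 4 fragments in any library.

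By the same estimate, the other 2 of these rows had more behind them. For ORYCUNV1R1658 only 2 values were free to fit, after smaller starting numbers had failed, so its match could be accidental. ORYCUNV1R1658 rested on 5, 7 and 8 fragments, each worth FPKM 0.0174 to 0.0204. ORYCUNV1R1519 rested on 8, 8 and 11 fragments in vericiguat + AngII and on 2, 0 and 2 in AngII, each worth 0.00985 to 0.0120. A fragment was worth 0.137 to 0.161 in ORYCUNV1R1524 and ORYCUNV1R1643, so the lower FPKM of ORYCUNV1R1658 and ORYCUNV1R1519 went with more fragments. By the definition of FPKM, a fragment is worth less in a longer row. Larger numbers in the same proportion remain possible.

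A listed 0 in blank or AngII has to be read against the depth and the composition of its library. Read from the same fragment values, depth relative to the first blank library was 1 to 1.16 in blank, 0.692 to 0.866 in AngII and 0.725 to 0.851 in vericiguat + AngII. The link between vericiguat + AngII and blank rested on 19 of 123 rows and may be off by a factor of 2. A count of 0 allows up to 3 fragments, which for a row like ORYCUNV1R1643 is FPKM 0.303 to 0.351 in blank and 0.405 to 0.507 in AngII, for counting error only. Its vericiguat + AngII value of 0.412 lay above the blank limits and within the range of the AngII limits, and 0.307 and 0.161 lay below the AngII limits. The value of 0.614 of ORYCUNV1R1524 lay above all its limits in blank and AngII, at most 0.507, and its other values lay below them. All values of ORYCUNV1R1648 lay below its AngII limits of 0.363 to 0.454. These limits were set library by library and were not pooled over a group. The AngII values of ORYCUNV1R1618, at most 0.341, likewise lay below its limit of 0.428 to 0.503 in vericiguat + AngII. For ORYCUNV1R1658 the same limit was 0.0383 to 0.0444 in blank and 0.0513 to 0.0642 in AngII, and for ORYCUNV1R1519 it was 0.0221 to 0.0256 in blank. The vericiguat + AngII values of these 2 rows, from 0.080 to 0.163, lay above those limits, which rest on the estimated fragment numbers. All limits here were compared on FPKM as deposited. FPKM outside KEF51 summed to 30992 to 37728 in blank, 45747 to 57618 in AngII and 426296 to 433771 in vericiguat + AngII. A value above a limit thus does not show that an equal share outside KEF51 would have been seen there.

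The ORYCUN rows were also set against the FPKM that lay outside the KEF51 entries. Their summed FPKM was 0 in each blank library, 0.16, 0.176 and 0.365 in AngII, and 8.317, 9.223 and 8.908 in vericiguat + AngII. Per 1000000 of FPKM outside KEF51, this was 3.50, 3.05 and 6.77 in AngII and 19.5, 21.5 and 20.5 in vericiguat + AngII. Without ORYCUNV1R1556, the other 146 rows came to 3.55, 3.78 and 3.63 per 1000000 in vericiguat + AngII, 3.66 ± 0.118 (SD, n = 3), against 4.44 ± 2.03 (SD, n = 3) in AngII. This likeness rested on the rows left in. ORYCUNV1R1618, at 0 in every vericiguat + AngII library, made up nearly all of the AngII sum. Without it the AngII libraries stood at 0.437, 0 and 0.445 per 1000000, or 0.294 ± 0.255 (SD, n = 3), all below the vericiguat + AngII values with or without ORYCUNV1R1556. At the vericiguat + AngII share, the 146 rows would sum to FPKM 0.113 to 0.138 in the blank libraries. That is 0.969 to 1.31 fragments of a row like ORYCUNV1R1643. At its own vericiguat + AngII share, ORYCUNV1R1556 would stand at FPKM 0.523 to 0.636 in blank and 0.771 to 0.972 in AngII, where it was listed at 0. These levels hold for that scale only. Median-ratio size factors stood further apart, at 0.0792 to 0.463 in blank, 0.297 to 0.448 in AngII and 13.9 to 15.8 in vericiguat + AngII. They would place the row lower. The 383 rows of like vericiguat + AngII mean had a median of FPKM 0.09 in blank and AngII. No fragment value was estimated for ORYCUNV1R1556, so its 0 values have no limit here.

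**Figure D3:**
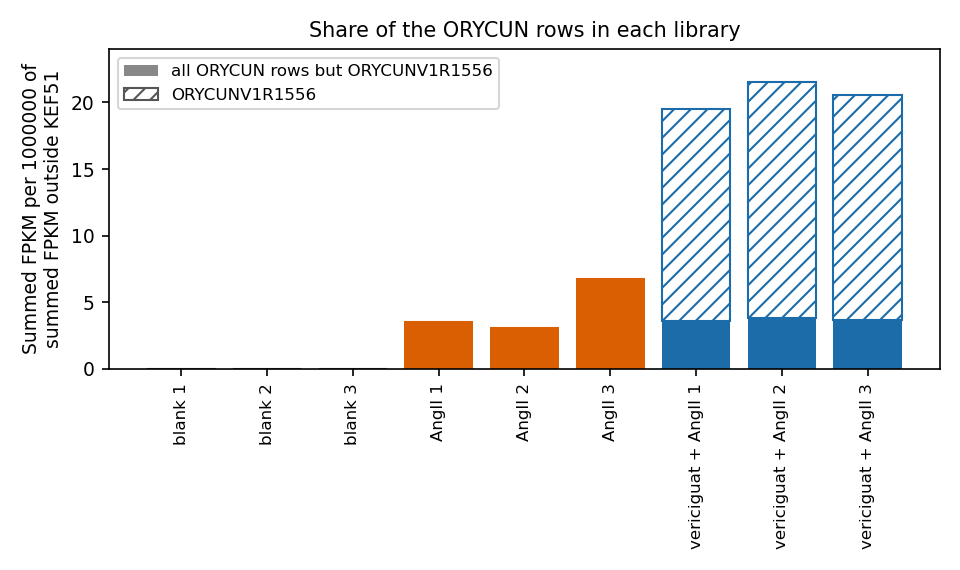
Summed FPKM of the ORYCUN rows per 1000000 of FPKM outside the KEF51 entries, as stacked bars for the 9 libraries, with ORYCUNV1R1556 hatched and the other 146 rows filled below it. Without ORYCUNV1R1556 the vericiguat + AngII libraries, at 3.55 to 3.78, lie within the AngII range of 3.05 to 6.77, which is nearly all ORYCUNV1R1618, and blank is at 0.

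The pattern of being seen in all 3 vericiguat + AngII libraries and in none of the other 6 was met by 5 ORYCUN rows (3.40%), by 184 (9.11%) of the other named rows and by 2199 (9.77%) of the whole table. With FPKM above 1 required in those 3 libraries, the counts were 1 (0.680%), 35 (1.73%) and 377 (1.67%), and with FPKM of at least 5 they were 1, 7 (0.347%) and 39 (0.173%). In the opposite direction, no ORYCUN row was seen in blank alone, as were 4 of the other named rows and 40 rows of the table.

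Other chemosensory receptors gave another set of genes with no known role as fibroblast markers. By symbol, 53 rows were olfactory or trace amine receptors, 22 of them under the standard OR and TAAR symbols and 31 under OLFR, OLR or COR names. No row had a taste receptor symbol or a VN1R or VN2R symbol. Of the 53 rows, 50 (94.3%) were listed at 0 in all 9 libraries, against 89.1% of the ORYCUN rows. Detection above FPKM 0 was 0% in blank, 0% to 3.77% in AngII and 5.66% in each vericiguat + AngII library, or 3 rows. The highest mean of these receptors in vericiguat + AngII was FPKM 1.88, below that of ORYCUNV1R1556. Of 21 markers of vomeronasal and olfactory sensory neurons, TRPC2 among them, only CNGA2 was found by symbol. CNGA2 is a subunit of the olfactory cyclic nucleotide-gated channel. CNGA2 was at 0 in the 6 blank and AngII libraries and at FPKM 1.87, 3.313 and 3.23 in vericiguat + AngII. The same pattern, with FPKM above 1 in vericiguat + AngII, was met by 377 rows (1.67%) of the whole table.

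**Figure D4:**
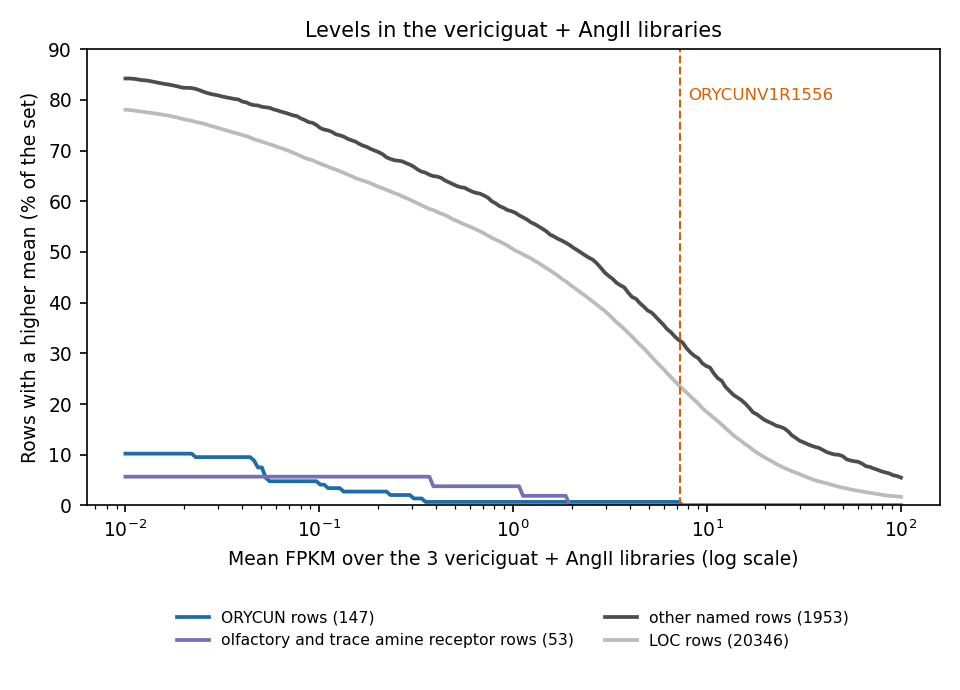
Share of rows (%, vertical axis) whose mean FPKM over the 3 vericiguat + AngII libraries exceeds the value on the horizontal axis (log scale), for the 147 ORYCUN rows, 53 olfactory and trace amine receptor rows, 1953 other named rows (without KEF51 and these receptors) and 20346 LOC rows; the dashed line marks ORYCUNV1R1556. At a mean above 0.1 the share is 4.08% for the ORYCUN rows and 67.5% for the LOC rows.

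The rows that did not reach the filter were also looked at with no filter and smaller pseudocounts, settings added after the data were seen. Here 16 of the 147 rows were tested among 18281, all because they were above 0 in at least 1 library. With a pseudocount of 0.1, 1 ORYCUN row was called between AngII and blank (3.63% of all rows tested), 6 between vericiguat + AngII and AngII (80.8%) and 5 between vericiguat + AngII and blank (81%). The row called between AngII and blank was ORYCUNV1R1618, with a difference of 1.62 on the log2(FPKM + 0.1) scale, and it was also the single row called lower in vericiguat + AngII than in AngII. It entered this fit only through the AngII libraries, on 4 fragments in all, so the call is a description. With no filter and a pseudocount of 1 its difference was 0.28 and it was not called, so the call depended on the pseudocount. No p from these fits is given for it, because the row had to differ. With a pseudocount of 0.01, the counts were 1 (6.03%), 8 (87.2%) and 7 (87.3%).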

How the data were processed

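The members and the lists were chosen with earlier results of these data known. The authors deposited a single table of FPKM values for 9 libraries, made from total RNA (TRIzol, TruSeq library kit). Their processing notes name FastQC 0.11.9, Trimmomatic 0.39, HISAT2 2.2.1, featureCounts 2.0.1 and OryCun2.0, without roles or order. Read counts were not used here and depth is known only relative to a library, from the fragment values. FPKM scales each library to its total, so entries that hold most of a library lower the FPKM of all other rows. Columns were mapped to samples by name, and no column was left unused (0). No pair of libraries was identical (0).

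Detection was the share of rows above FPKM 0, 0.1 and 1. Rows were tested with limma 3.58.1 in R 4.3.3 (lmFit, eBayes with trend) on log2(FPKM + 1), all 9 libraries in a single fit without covariates, and the code was tested on simulated data. Exact permutation tests were two-sided (scipy 1.17.1). Fragment ratios used rows between FPKM 0.1 and 0.6. Rows named were the 10 with the highest mean FPKM, those that passed the filter and those called; others are given as chosen after their values were seen. Alternatives covered thresholds, pseudocounts, filters, scalings, the variance model, the groups in the fit, a replicate block and leaving out each library.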

Additional observations from a re-analysis of the deposited data

How the results depend on the processing

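Of 183 alternatives for the results on the ORYCUN rows, 165 kept direction and side of the threshold or stayed within the spread, 18 did not, and 0 reversed. Part of the 165 could not have differed. Every ORYCUN value in blank was 0, and ORYCUNV1R1556 was at 0 in all blank and AngII libraries. The count is therefore not a measure of how firm the results are. At a threshold of FPKM 0.5, the share detected was 0% in AngII and 0.907% in vericiguat + AngII. With rows outside KEF51 rescaled to 1000000, the share above 0.1 in AngII was 1.13%, and the shares above 1 were 0.680% in AngII and 0.907% in vericiguat + AngII. With all rows rescaled, the share above 0.1 in AngII was 0.227%. Without ORYCUNV1R1556 the vericiguat + AngII sum was 3.66 per 1000000, and without ORYCUNV1R1618 the AngII sum was 0.294. Median-ratio scaling called 0 ORYCUN rows in both contrasts with vericiguat + AngII, with a log2 fold change of 0.58 for ORYCUNV1R1556. No filter with a pseudocount of 0.1 called 1, 6 and 5 rows (AngII against blank, vericiguat + AngII against AngII and against blank), and 0.01 called 1, 8 and 7. With a mean FPKM of at least 5 no ORYCUN row could be tested. The cause of these changes was not tested beyond what each setting does by construction.

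Leaving out each library gave 0 to 0, 1 to 1 and 1 to 1 rows called and a log2 fold change of 3.01 to 3.08 for ORYCUNV1R1556. Detection above 0 was 0% to 0% in blank, where every value was 0, 1.02% to 1.36% in AngII and 6.12% to 6.46% in vericiguat + AngII. Above 0.1 it was 0.680% to 0.680% in AngII and 4.76% to 5.44% in vericiguat + AngII.

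Over the whole table, calls between AngII and blank moved from 169 (157 higher) to between 0 (only the groups compared) and 1582 (quantile normalization). Without blank replicate 1, 2 or 3 they were 113, 309 and 0. Without AngII replicate 1, 2 or 3 they were 146, 225 and 29. Without vericiguat + AngII replicate 1, 2 or 3 they were 2, 2 and 18, so the background of that contrast is not firm. Samples with the same replicate number did not deviate together (correlations -0.062 to 0.065). That gave no sign of pairing by number, but it cannot exclude a shared preparation. The replicate block called 0, 1 and 1 ORYCUN rows and 7, 10869 and 10846 rows in all.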
